A study of Caenorhabditis elegans with 18 samples.

Results

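The pals genes were taken as every gene whose symbol begins with pals-, matched to the gene identifiers of the tables through the reference gene names. The names hold 38 such genes, and 37 of them are among the 47020 genes of the tables; pals-21 was not analysed here. All 37 are annotated as protein coding, and all 37 passed the minimum of 10 reads summed over the 18 libraries. RNA of whole wild type N2 worms was sequenced in 6 groups of 3 biological replicates. From the L1 stage the worms were fed bacteria making double-stranded RNA from the control vector, called control(RNAi), against the duplicate genes numr-1 and numr-2, called numr-1/2(RNAi), or against ints-4, called ints-4(RNAi). At the late L3 stage each was moved for 12 h to plates with 0 or 300 μM cadmium. The methods describe the collected worms as late L4 larvae to young adults and the submitters' notes as gravid young adults, so their exact stage is uncertain. NUMR-1 and NUMR-2 are nuclear proteins that resemble splicing factors and that are made in response to cadmium, and INTS-4 is a subunit of the integrator complex, which cuts the 3′ ends of small nuclear RNAs.

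PALS proteins share a weakly conserved domain named after a human protein, ALS2CR12, and their genes have multiplied in C. elegans, often in tandem rows. Many of them are switched on by microsporidia and by the Orsay virus, which grow inside intestinal cells, as part of a transcriptional programme called the intracellular pathogen response. Others regulate that programme. PALS-22 and PALS-17 hold it down, PALS-25 is needed to turn it on when PALS-22 is lost, PALS-16 and PALS-20 promote it, and the promoter of pals-5 drives the usual reporter of the response.

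By the coordinates of the WBcel235 annotation, 14 of the 37 genes lie in 1 row on chromosome I (I:13083321-13144623). The regulators pals-22 and pals-25 and their neighbours pals-23 and pals-24 lie on chromosome III (III:120435-137975), as do pals-40, pals-20, pals-17, pals-16, pals-19 and pals-18 (III:1376945-1406263) and pals-26, pals-27 and pals-28 (III:4375154-4387757). The genes pals-29 and pals-30 lie on chromosome IV (IV:14539685-14551970), pals-37, pals-38 and pals-39 on chromosome V (V:12437440-12446995), and pals-1, pals-31, pals-32, pals-33 and pals-34 each stand alone. The annotated span of pals-3 overlaps pals-12 on the same strand and pals-4 on the other, and pals-18 overlaps pals-19. Reads in those overlaps could have been given to either gene or to none, so the values of these 5 genes are uncertain to that extent, and reads of similar paralogs may have been lost or shared in the same way.

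The deposited tables give 1 value per gene and group, the mean of 3 scaled libraries. Each value was taken apart into the whole reads of its 3 libraries, which are called a, b and c here because the tables do not say which replicate each is. The libraries without cadmium held 34604859 to 40521063 reads. With cadmium, genes of very many reads could not be taken apart, and the remaining genes held 8702320 to 10907469 reads per library. Libraries of the same group correlated at r = 0.944 to 0.975 across genes, against 0.875 to 0.961 for libraries of different groups. No library pair of a group agreed within counting error, as chi-square per degree of freedom was 3.93 or more. A normalised read count below is the number of reads divided by the scaling factor of the library, and a difference is on the log2(normalised reads + 0.5) scale with its standard error from limma, with p adjusted by the Benjamini-Hochberg method over the 20096 genes tested. A gene was called at an adjusted p under 0.05. A call that is lost or held without a library refers to the libraries of the groups compared. The adjusted p are all from limma.

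The targeted genes were read first. Normalised reads of ints-4 were 603 to 697 in the ints-4(RNAi) libraries and 1396 to 1771 in control(RNAi), a fall of 1.23 on the log2 scale (SE 0.14, adjusted p = 5.79e-07), so the transcript was reduced and not removed. The sequences of the numr-1/2 pair (WBGene00017270 and WBGene00017267) are described as identical in the study, so reads cannot be assigned to one copy with certainty and the separate values of the copies are uncertain. The pair was low without cadmium, with 1.0 to 5.6 and 9.6 to 44.1 normalised reads in control(RNAi) and 0 to 3.0 and 19.7 to 43 in numr-1/2(RNAi), and neither copy was called there. With cadmium both copies were lower in numr-1/2(RNAi) than in control(RNAi), at -2.13 (SE 0.64, adjusted p = 0.0179) and -1.43 (SE 0.37, adjusted p = 0.00677). The knockdown of numr-1/2 was therefore measurable only in the worms with cadmium.

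The pals genes rose together when ints-4 was knocked down. Of the 37 genes, 26 were higher in ints-4(RNAi) than in control(RNAi) and 2 were lower, where 18.6% of all genes tested were higher and 14.1% lower. The median difference of the 37 was 2.83 on the log2 scale, against 0.155 over all genes. The summed normalised reads of the family were 1586, 1725 and 1808 in the control(RNAi) libraries and 6438, 6622 and 6824 in the ints-4(RNAi) libraries. In control(RNAi) 5 of the genes had no read in any library, and in ints-4(RNAi) all 37 had reads in at least 1 library. Detection rose over the whole series too, with 20841 of the 47020 genes above 0 in control(RNAi) and 24573 in ints-4(RNAi). Markers of several tissues moved between the same groups. In the deposited group values 7 intestine markers summed to 0.766 times the control(RNAi) level in ints-4(RNAi), with 3 of the 7 at least 2-fold lower, 8 epidermis markers to 0.448 times, 8 germline and oocyte markers to 0.583 times and 8 sperm markers to 1.24 times. The epidermis markers went both ways, with 3 of the 8 at least 2-fold lower and log2 ratios from -3.15 to 0.55, and of the 3 that limma tested elt-3 was called higher (0.38) and none lower. The genes of the intestinal transcription factors ELT-2 and ELT-7 were called lower by limma, with falls of 1.31 and 2.07 on the log2 scale. No marker was at 0 in any group. Their part in the changes of the pals genes was not tested. These are whole worms, in which more cells that transcribe a gene and more RNA per cell cannot be told apart.

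**Figure D1:**
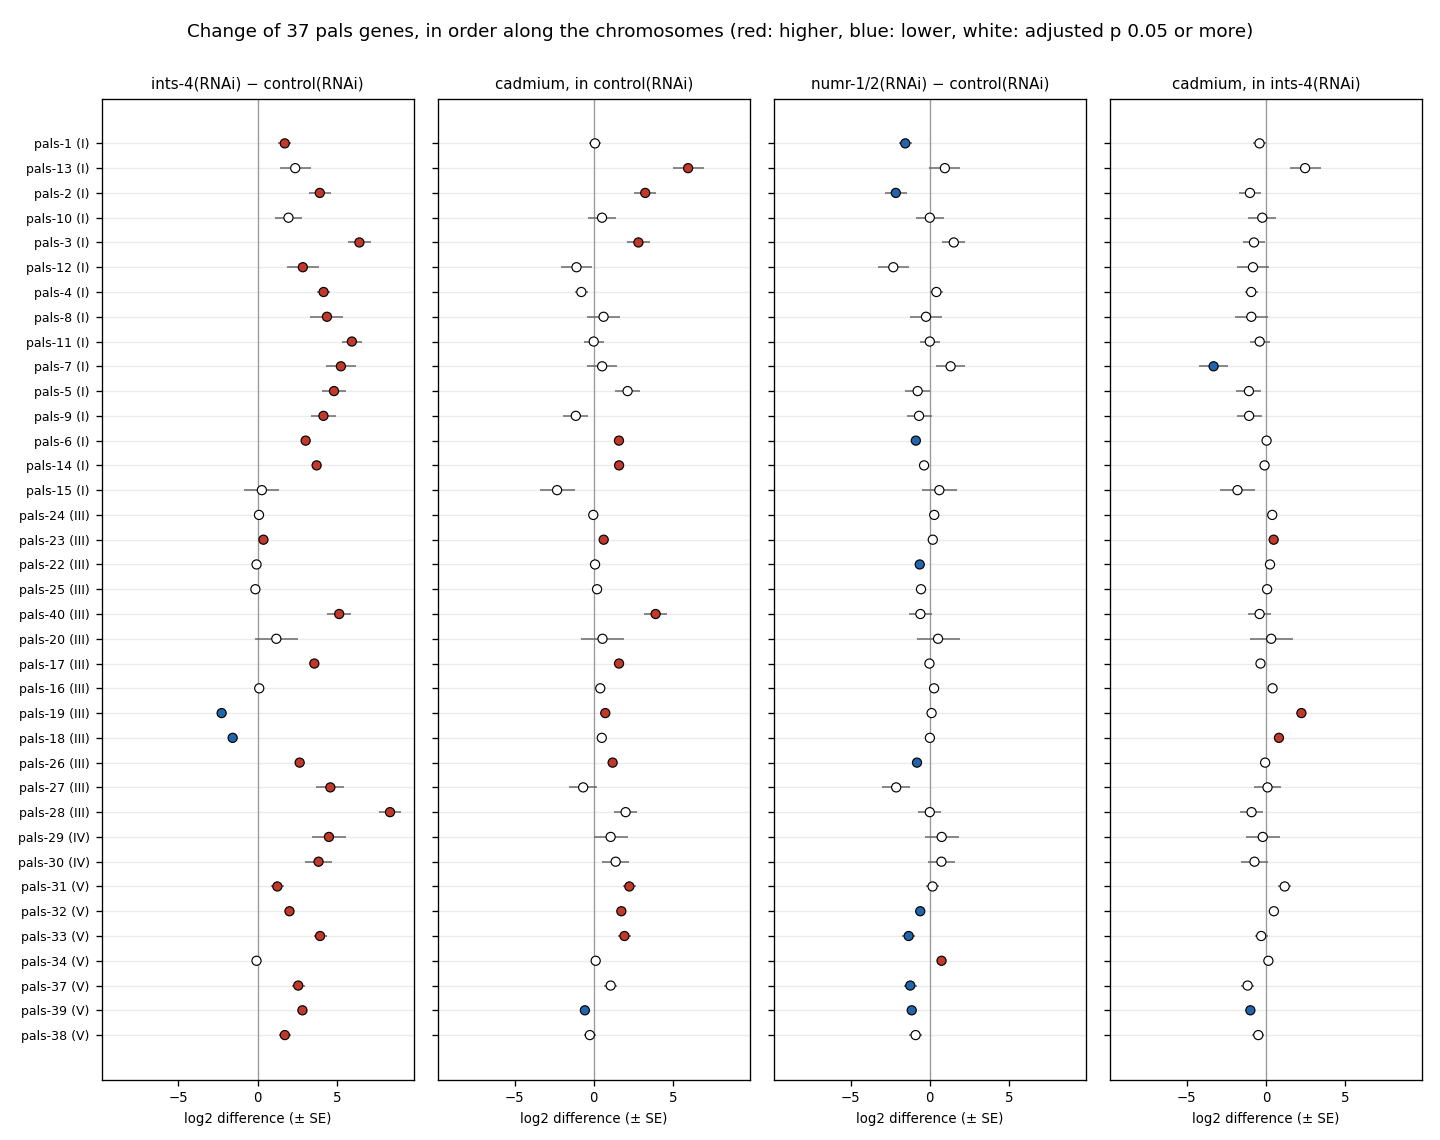
Difference of each of the 37 pals genes on the log2(normalised reads + 0.5) scale, with its SE as a bar, in 4 comparisons; genes run down the axis in their order along the chromosomes, and filled points have an adjusted p under 0.05. With ints-4(RNAi) 26 genes are red and 2 are blue, and with cadmium in ints-4(RNAi) 3 are red and 2 are blue.

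Of the 5 known regulators 1 was called with ints-4(RNAi). Normalised reads of pals-22 were 140, 114 and 130 in control(RNAi) and 96.8, 136 and 136 in ints-4(RNAi), a difference of -0.07 (SE 0.21, adjusted p = 0.835). Those of pals-25 were 91.5, 63.9 and 50.8 against 67.1, 48.4 and 67.9, a difference of -0.14 (SE 0.26, adjusted p = 0.722). In both genes the groups overlapped. The positive regulators differed by 0.10 (pals-16, SE 0.24, adjusted p = 0.788) and 1.18 (pals-20, SE 1.36, adjusted p = 0.555). Reads of pals-20 were 0, 1 and 2 in control(RNAi) and 11, 4 and 0 in ints-4(RNAi), so the groups overlapped. The summed reads, 3 and 15, gave a ratio of 4.75 with a 95% interval from counting error of 1.34 to 25.6. That interval leaves out the spread between libraries.

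That 1 was pals-17, a repressor. Its normalised reads were 204, 89.5 and 143 in control(RNAi) and 1631, 1732 and 1595 in ints-4(RNAi), a rise of 3.58 (SE 0.21, adjusted p = 9.24e-11). Every ints-4(RNAi) library was above every control(RNAi) library. The neighbours of pals-22, namely pals-24 and pals-23, had control(RNAi) means of 327 ± 16.2 and 222 ± 6.98 normalised reads (SD, n = 3). In ints-4(RNAi) pals-24 differed by 0.09 (SE 0.13, adjusted p = 0.661). The gene pals-23 was called higher by 0.37 (SE 0.13, adjusted p = 0.033), but the call was lost when control(RNAi) library a, b or c or ints-4(RNAi) library b or c was left out, with adjusted p of 0.0519 to 0.14.

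The reporter gene pals-5 was close to silent in control(RNAi), with 2, 0 and 0 reads. In ints-4(RNAi) it had 24, 18 and 30 reads, a ratio of 34.2 with a 95% interval from counting error of 9.12 to 288 (limma difference 4.82, SE 0.79, adjusted p = 6.44e-05). Every ints-4(RNAi) library was above the highest control(RNAi) library. It lies in the row on chromosome I, where 11 of the 14 genes were called higher with ints-4(RNAi) and none lower, with differences from 0.27 to 6.43.

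Within that row the size of the rise varied between neighbours. The gene pals-11 had no read in any control(RNAi) library and 32, 30 and 29 reads in ints-4(RNAi), which makes it at least 28.8-fold higher by a floor of 3 reads over the group (adjusted p = 2.53e-07). The gene pals-7 likewise went from no read to 19, 14 and 24 reads, at least 18-fold higher (adjusted p = 0.000169). These genes were detected in every ints-4(RNAi) library and in no control(RNAi) library.

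The gene pals-3 had 5.9, 0.0 and 10.2 normalised reads in control(RNAi) and 289, 304 and 245 in ints-4(RNAi), a rise of 6.43 (SE 0.72, adjusted p = 7.68e-07). For pals-9 the values were 5.9, 4.3 and 5.6 against 104, 103 and 98.1, a rise of 4.16 (SE 0.79, adjusted p = 0.000344). For pals-8 the reads were 2, 0 and 0 against 11, 24 and 19, a ratio of 25.6 with a 95% interval of 6.76 to 217 (adjusted p = 0.00257). No groups overlapped in these 3 genes. Their neighbours pals-4, pals-14, pals-2 and pals-6 rose by 4.17, 3.73, 3.92 and 3.03, and pals-12 by 2.85. The call of pals-12 was lost without control(RNAi) library b or c or ints-4(RNAi) library a, b or c, with adjusted p of 0.0682 to 0.128. The 3 genes of the row that were not called were pals-10, pals-13 and pals-15, which had 7, 12 and 23 reads over the 3 ints-4(RNAi) libraries. Without ints-4(RNAi) library a, pals-10 and pals-13 were called (adjusted p = 0.0145 and 0.00751).

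Genes on the other chromosomes rose as well. The largest fitted difference of the family was that of pals-28 on chromosome III (8.36), which had no read in the control(RNAi) libraries and 164, 143 and 185 reads in those of ints-4(RNAi), at least 156-fold higher (adjusted p = 1.8e-08). Its neighbour pals-27 went from 4.9, 7.5 and 4.5 normalised reads to 120, 172 and 145, a rise of 4.59 (SE 0.88, adjusted p = 0.000351), and pals-26 rose by 2.65 (SE 0.24, adjusted p = 2.46e-08). All 3 genes of that row were thus called higher.

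Normalised reads of pals-40 were 0, 3.2 and 4.5 in control(RNAi) and 75.7, 91.7 and 58.5 in ints-4(RNAi), a rise of 5.15 (SE 0.74, adjusted p = 1.58e-05). For pals-29 on chromosome IV the reads were 1, 0 and 1 against 24, 21 and 26, a ratio of 33.7 with a 95% interval of 8.99 to 284 (adjusted p = 0.00273), and its neighbour pals-30 rose by 3.85 (SE 0.85, adjusted p = 0.00133). On chromosome V pals-39, pals-37 and pals-38 rose by 2.83, 2.56 and 1.72. Of the genes that stand alone, pals-33, pals-32, pals-1 and pals-31 rose by 3.94, 2.01, 1.71 and 1.24. The call of pals-31 was lost without control(RNAi) library c or ints-4(RNAi) library a or c, with adjusted p of 0.0662 to 0.159. The gene pals-34 differed by -0.07 (SE 0.26, adjusted p = 0.866).

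The 2 genes that fell were the neighbours pals-18 and pals-19. Normalised reads of pals-19 were 112, 76.7 and 84.7 in control(RNAi) and 16.3, 22.2 and 16.7 in ints-4(RNAi), a fall of 2.27 on the log2 scale (SE 0.21, adjusted p = 4.02e-08). Those of pals-18 were 128, 154 and 173 against 47.0, 51.4 and 52.2, a fall of 1.58 (SE 0.22, adjusted p = 1.09e-05). The groups did not overlap in either gene. Both genes lie in the row of pals-17 and pals-40, 2 genes that rose, and of pals-16, which was not called.

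**Figure D2:**
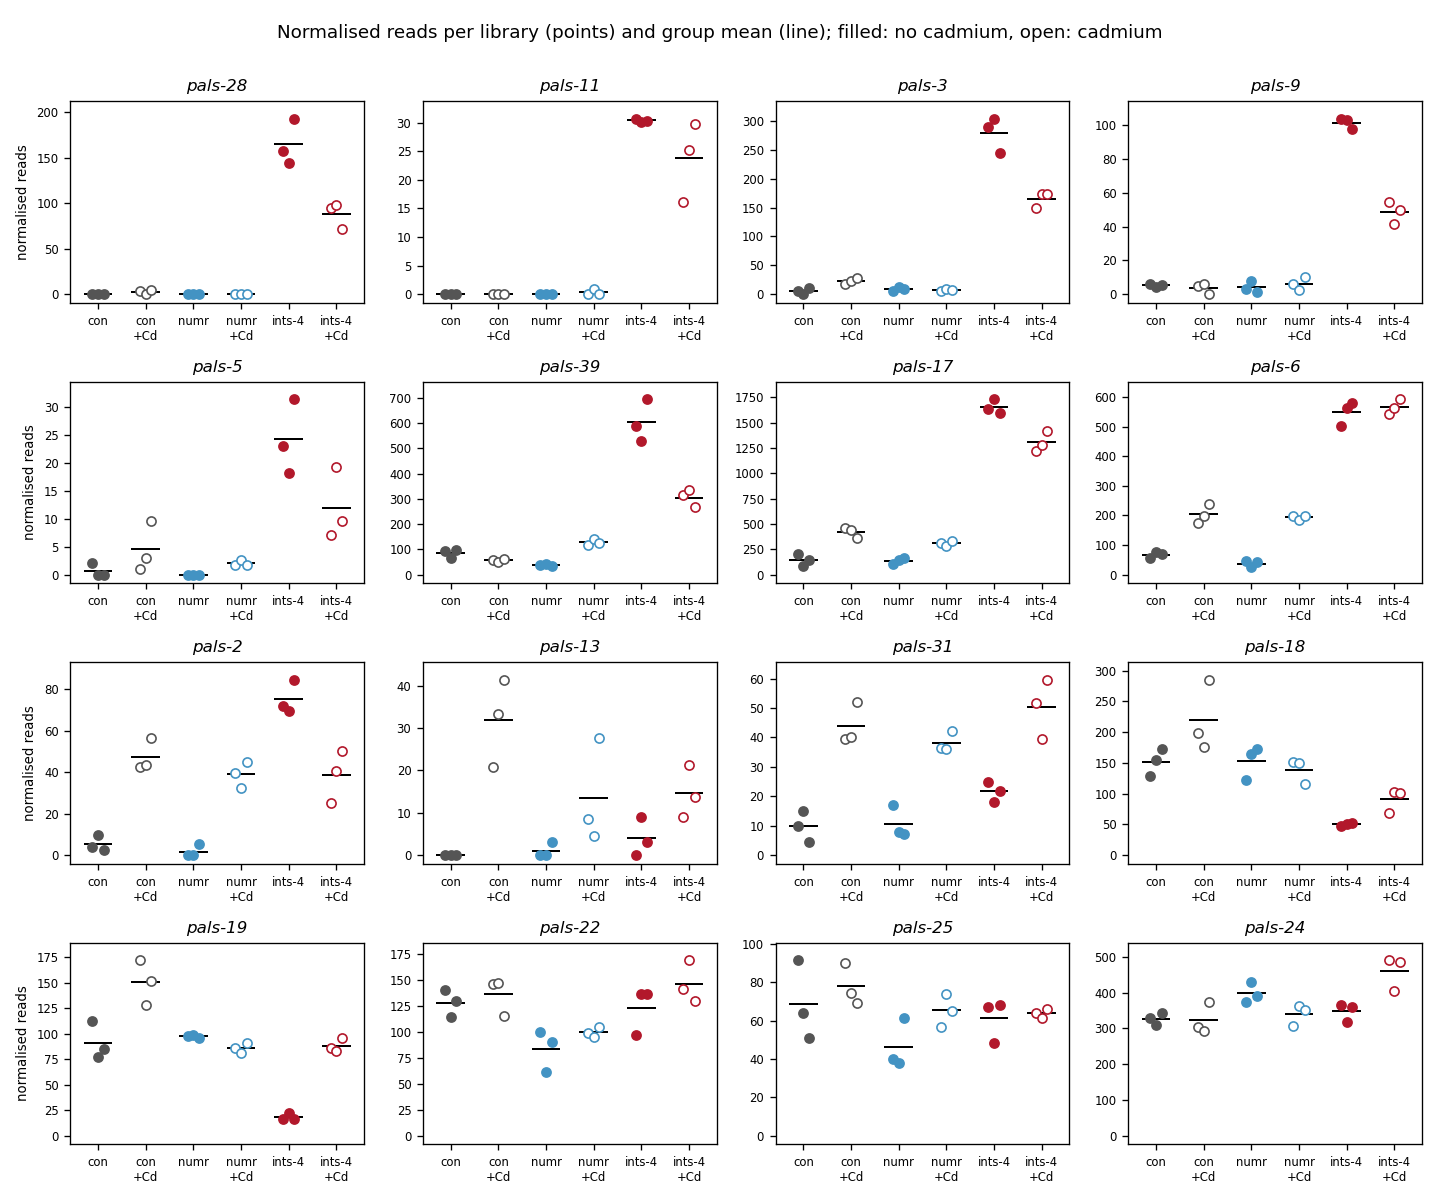
Normalised reads of 16 pals genes in each of the 18 libraries, with the group mean as a line, on a linear axis for each gene; con is control(RNAi), numr is numr-1/2(RNAi), filled points had no cadmium and open points had it. For pals-28 the ints-4(RNAi) libraries lie at 144 to 193 and the control(RNAi) libraries at 0, while for pals-19 they lie at 16.3 to 22.2 against 76.7 to 112.

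Other genes of the intracellular pathogen response were read as well. In a list of 18 response genes outside the family, 15 were called higher with ints-4(RNAi) and none lower, with a median difference of 3.50, where 18.6% of all genes tested were higher. The gene eol-1, which codes for a relative of the decapping exoribonuclease DXO, went from 35.4, 20.2 and 22.6 normalised reads to 1841, 1821 and 1851 (6.15, SE 0.19, adjusted p = 9.64e-15). F26F2.1, also a gene of the response, went from 5.9, 17 and 5.6 to 2314, 2385 and 2428 (8.07, SE 0.47, adjusted p = 1.06e-10). In both genes the groups did not overlap.

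The cullin gene cul-6, whose product is the scaffold of a ubiquitin ligase of the response, rose by 2.55 (SE 0.11, adjusted p = 2.1e-12), and its Skp1-related partners skr-5 and skr-4 rose by 2.75 and 0.56. The F-box genes fbxa-75 and fbxa-158 were called higher too, as were F26F2.3, F26F2.4, B0507.6, B0507.8, ddn-1, C43D7.4, sdz-6 and hecw-1. The genes not called were skr-3 (0.15), rcs-1 (0.03), a RING gene, and chil-27 (-0.59), a chitinase-like gene of the response to oomycetes. Among the regulators outside the family, zip-1, a bZIP transcription factor of the response, was called higher by 0.80 (SE 0.14, adjusted p = 0.000201). The viral RNA sensor gene drh-1 differed by 0.13 (SE 0.12, adjusted p = 0.446), and the repressor genes sta-1 and lin-35 differed by 0.02 and -0.22 and were not called. The repressor gene pnp-1 could not be taken apart into libraries.

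**Figure D3:**
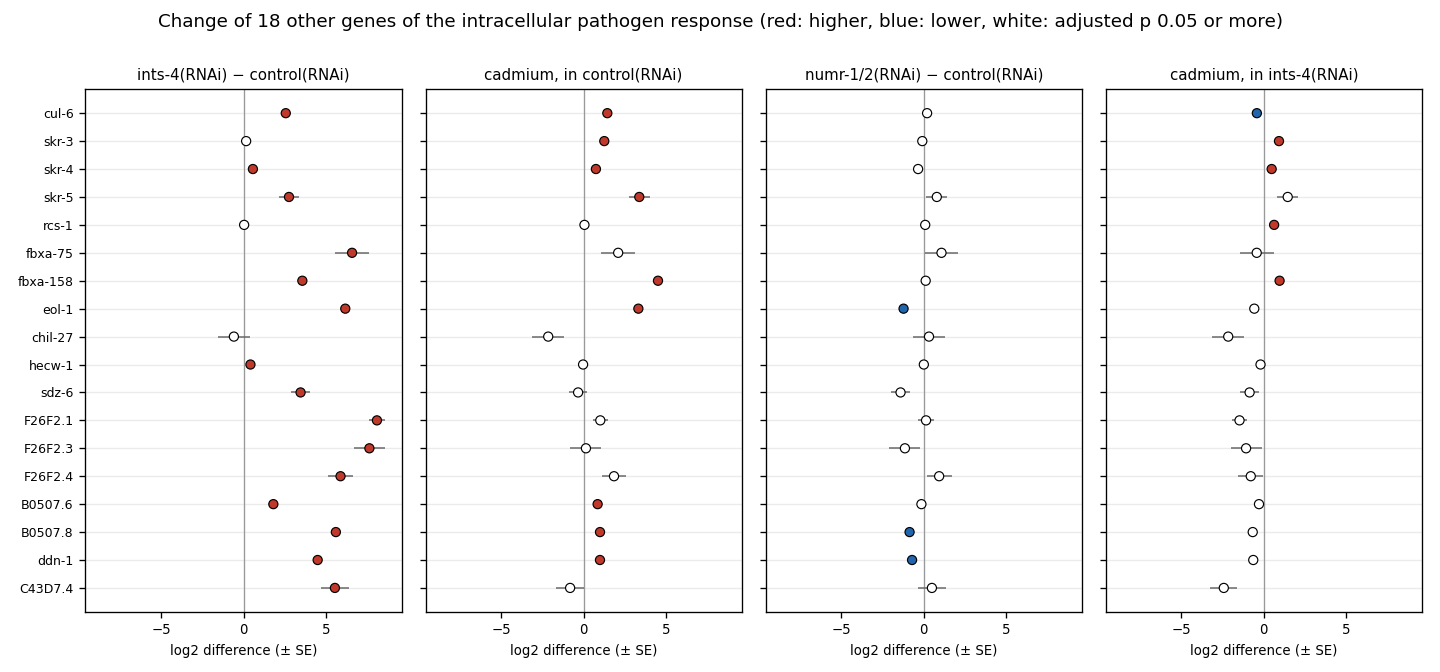
Difference of 18 genes of the intracellular pathogen response outside the pals family on the log2(normalised reads + 0.5) scale, with its SE as a bar, in 4 comparisons; filled points have an adjusted p under 0.05. With ints-4(RNAi) 15 genes are red, with F26F2.1 at 8.07 and eol-1 at 6.15, and with cadmium in control(RNAi) 9 are red.

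Cadmium raised some members of the family in control(RNAi). In control(RNAi) 13 of the 37 genes were higher with cadmium and 1 was lower, where 10.9% of all genes tested were higher and 11.7% lower. Another scaling used the total reads of the genes taken apart in every library. It moved the split over all genes to 2764 higher and 1711 lower, from 2194 and 2349, and called 15 members higher and none lower. The median difference of the 37 was 0.62, against 0.00 over all genes. The summed normalised reads of the family were 2687, 2910 and 3049 with cadmium. In the deposited group values the germline and oocyte markers summed to 0.301 times the level without cadmium and the sperm markers to 0.788 times. The intestine markers summed to 1.01 times, and elt-2 and elt-7 were called lower by limma, by 0.79 and 1.16. The epidermis markers summed to 1.02 times but went both ways, with log2 ratios from -1.24 to 0.83. Of the 8, 1 was at least 2-fold lower and none at least 2-fold higher. Of the 3 epidermis markers that limma tested, elt-3 and nhr-25 were called higher (0.61 and 0.85) and elt-1 was not called. Their part was not tested.

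The largest fitted difference was that of pals-13, in the row on chromosome I. It had no read in control(RNAi) and 21, 33 and 39 reads with cadmium, at least 29.9-fold higher (adjusted p = 0.000118). Normalised reads of pals-40 went to 19.8, 38.3 and 39.3 from 0, 3.2 and 4.5, a rise of 3.91 (SE 0.74, adjusted p = 0.000518). Those of pals-2 went from 3.9, 9.6 and 2.3 to 42.5, 43.3 and 56.3, a rise of 3.25 (SE 0.70, adjusted p = 0.00153). Groups with and without cadmium did not overlap in these genes.

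Normalised reads of pals-3 were 17.8, 22.2 and 28.7 with cadmium, a rise of 2.82 (SE 0.72, adjusted p = 0.00653), and those of pals-31 were 39.6, 40.3 and 52.0 against 9.8, 14.9 and 4.5, a rise of 2.25 (SE 0.42, adjusted p = 0.000422). The repressor pals-17 rose to 465, 440 and 358, by 1.60 (SE 0.21, adjusted p = 8.99e-06). The genes pals-33, pals-32, pals-14, pals-6 and pals-26 rose by 1.94, 1.74, 1.60, 1.59 and 1.19. Smaller rises were called for pals-19 (0.73, SE 0.21, adjusted p = 0.0145) and pals-23 (0.63, SE 0.13, adjusted p = 0.000928). The call of pals-19 was lost without control(RNAi) library b or c or control(RNAi) with cadmium library a, with adjusted p of 0.0525 to 0.0702.

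The 1 gene that fell was pals-39, with 95.5, 63.9 and 97.1 normalised reads in control(RNAi) and 59.3, 50.3 and 61.6 with cadmium (-0.56, SE 0.19, adjusted p = 0.0414). The call was lost without control(RNAi) library a or c or control(RNAi) with cadmium library a or b, with adjusted p of 0.0646 to 0.166. The regulators pals-22 and pals-25 differed by 0.09 (SE 0.21) and 0.21 (SE 0.26), with adjusted p = 0.849 and 0.642. The reporter pals-5 had 1, 3 and 9 reads with cadmium against 2, 0 and 0, a ratio of 6.27 with a 95% interval of 1.42 to 57.2, and was not called (adjusted p = 0.0566); it was called without control(RNAi) library a or control(RNAi) with cadmium library a, with adjusted p of 0.0136 and 0.0199. Of the remaining members, pals-28 was called without control(RNAi) with cadmium library b (0.00157), pals-37 without the same library (0.0277), pals-30 without control(RNAi) library c (0.0329), pals-15 without control(RNAi) with cadmium library a (0.0328) and pals-4 without that library or control(RNAi) library b (0.0229 and 0.0431).

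In the response list outside the family 9 of the 18 genes were called higher with cadmium and none lower, with a median of 0.99, where 10.9% of all genes were higher. The F-box gene fbxa-158 rose the most of the list, from 14.8, 18.1 and 24.9 to 466, 454 and 391 normalised reads (4.50, SE 0.18, adjusted p = 5.1e-13). The genes eol-1 and cul-6 rose by 3.31 and 1.43, skr-5, skr-3 and skr-4 by 3.36, 1.25 and 0.74, and B0507.8, ddn-1 and B0507.6 by 0.99, 0.99 and 0.84. F26F2.1 was not called (1.0, SE 0.47, adjusted p = 0.139). Of the regulators, zip-1 and sta-1 were called higher, by 0.59 (adjusted p = 0.0044) and 0.45 (adjusted p = 0.0499), and lin-35 lower by 0.48 (adjusted p = 0.0409).

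Which members differed between the 2 treatments was tested by comparing ints-4(RNAi) without cadmium with control(RNAi) with cadmium, a comparison added after the data were seen. In ints-4(RNAi) 21 of the 37 genes were higher and 3 lower, where 21.5% of all genes were higher and 14.7% lower. The largest differences were those of pals-28 (6.35, SE 0.73, adjusted p = 9.14e-07), pals-11 (no read in control(RNAi) with cadmium, at least 29.9-fold higher in ints-4(RNAi), adjusted p = 2.96e-07), pals-9 (5.29, SE 0.79, adjusted p = 2.7e-05), pals-27 (5.26, SE 0.88, adjusted p = 9.11e-05) and pals-4 (4.95, SE 0.42, adjusted p = 1.83e-08). These are genes with at most 14.1 normalised reads in any control(RNAi) library with cadmium, except for pals-4 with 19.8. The gene pals-39 was higher by 3.39 (SE 0.19, adjusted p = 5.83e-11). Its call as lower with cadmium in control(RNAi) had been lost without some libraries. The reporter pals-5 was higher by 2.68 (SE 0.79, adjusted p = 0.0113), a call that was lost without control(RNAi) with cadmium library a (adjusted p = 0.0672). The calls of pals-29 and pals-30 were lost without control(RNAi) with cadmium library b (0.106 and 0.108) or ints-4(RNAi) library c (0.0521 and 0.103), and that of pals-30 also without ints-4(RNAi) library b (0.0774).

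The 3 genes that were lower in ints-4(RNAi) than in cadmium were pals-19 (-3.0, SE 0.21, adjusted p = 1.04e-09), pals-18 (-2.09, SE 0.22, adjusted p = 3.28e-07) and pals-13 (-3.59, SE 0.98, adjusted p = 0.00725). In ints-4(RNAi) pals-13 had 0, 9 and 3 reads against the 21, 33 and 39 of cadmium, and its call was lost without ints-4(RNAi) library a (adjusted p = 0.0615). The genes pals-2 (0.67, SE 0.70), pals-40 (1.24, SE 0.74), pals-32 (0.27, SE 0.18) and pals-31 (-1.0, SE 0.42) were not called. The genes pals-19 and pals-13 were among those called higher with cadmium against control(RNAi), and pals-18 was not.

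Cadmium was also added to ints-4(RNAi). Of the 37 genes 3 were higher and 2 lower with cadmium in ints-4(RNAi), where 5.18% of all genes (1040) were higher and 1004 genes were lower, so the members' shares were near those of all genes. In the deposited group values the epidermis markers summed to 0.643 times the level without cadmium, the germline and oocyte markers to 0.689 times, the sperm markers to 0.853 times and the intestine markers to 1.12 times, and limma called elt-2 higher by 0.43. Their part was not tested. Scaled by the totals of the genes taken apart in every library, the split over all genes was 1347 higher and 722 lower, from 1040 and 1004. With that scaling 5 members were higher and 2 lower. The summed normalised reads of the family were 5826, 5878 and 5920. The gene pals-19 went from 16.3, 22.2 and 16.7 to 86.1, 82.9 and 95.8 normalised reads, a rise of 2.24 (SE 0.21, adjusted p = 3.2e-07), which lies within the range of the control(RNAi) libraries without cadmium. Its neighbour pals-18 rose by 0.83 (SE 0.22, adjusted p = 0.0199) and pals-23 by 0.49 (SE 0.13, adjusted p = 0.0166). The genes that fell were pals-39, from 587, 529 and 694 to 315, 333 and 267 (-0.98, SE 0.19, adjusted p = 0.002), and pals-7, from 19, 14 and 24 reads to 0, 5 and 2 (-3.30, SE 0.94, adjusted p = 0.0281).

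The calls of pals-18, pals-23 and pals-7 did not hold without each library. That of pals-18 was lost without ints-4(RNAi) library a, b or c or ints-4(RNAi) with cadmium library b or c (adjusted p of 0.0506 to 0.0877), and that of pals-7 without ints-4(RNAi) library a, b or c or ints-4(RNAi) with cadmium library a or c (0.0556 to 0.133). That of pals-23 was lost without ints-4(RNAi) library a or c or ints-4(RNAi) with cadmium library b (0.054 to 0.0916). Those of pals-19 and pals-39 held without any 1 library. The genes pals-24 and pals-37 were called without ints-4(RNAi) with cadmium library b (0.0353) and library a (0.0321).

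The change with cadmium differed between ints-4(RNAi) and control(RNAi) for 11 of the 37 genes by the interaction term of the fit. In 10 of them it was lower in ints-4(RNAi), and in 1 higher, where 3.70% of all genes tested were lower and 4.53% higher. The 10 were pals-2, pals-3, pals-6, pals-14, pals-17, pals-26, pals-32, pals-33, pals-37 and pals-40, with differences between the 2 changes of -4.30 to -1.24. The repressor pals-17 had risen with cadmium in control(RNAi) and went from 1631, 1732 and 1595 to 1223, 1283 and 1414 normalised reads in ints-4(RNAi), and its 2 changes differed by -1.94 (SE 0.30, adjusted p = 0.000212). For pals-6 the means were 550 ± 40.3 and 567 ± 24.6 in ints-4(RNAi) and 67.2 ± 9.38 and 204 ± 32 in control(RNAi) without and with cadmium (SD, n = 3), with a difference of -1.55 (SE 0.27, adjusted p = 0.000777). With all libraries, none of the 10 was called for cadmium in ints-4(RNAi) itself. The 1 gene with the larger rise in ints-4(RNAi) was pals-19 (1.51, SE 0.30, adjusted p = 0.00214).

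**Figure D4:**
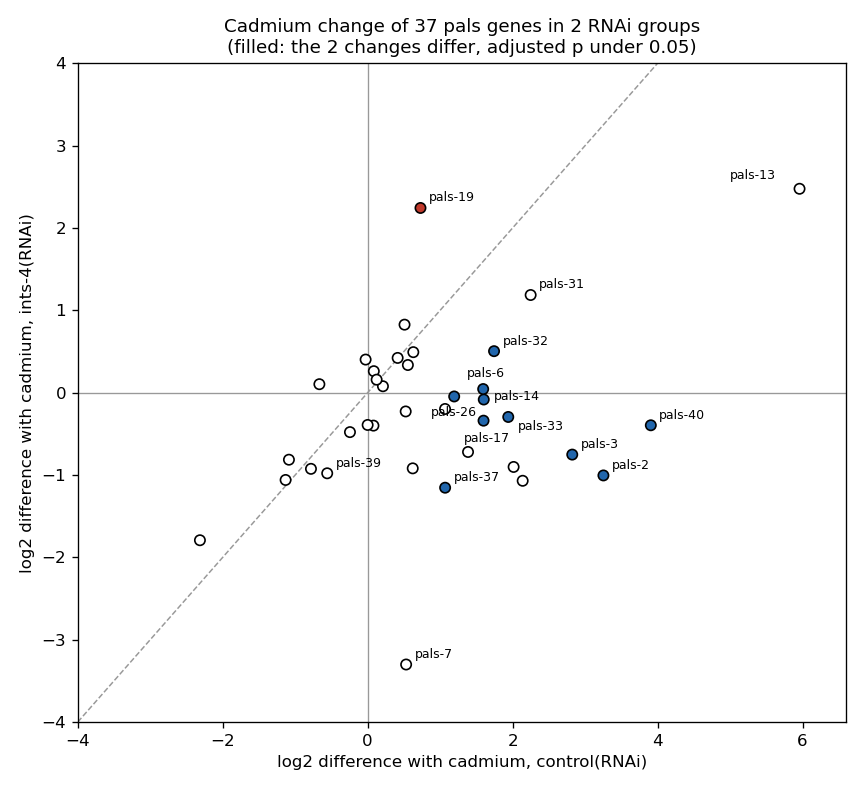
Change of each of the 37 pals genes with cadmium in control(RNAi) (horizontal axis) and in ints-4(RNAi) (vertical axis), both on the log2(normalised reads + 0.5) scale, with a dashed line where the changes are equal; filled points are genes whose 2 changes differ at an adjusted p under 0.05, blue where the change is lower in ints-4(RNAi) and red where it is higher. The 10 blue points lie below the line, from pals-37 to pals-40, and pals-19 lies above it at 0.73 and 2.24.

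Of these interaction calls, that of pals-3 was lost without any 1 of control(RNAi) with cadmium library b or c or any library of ints-4(RNAi) with or without cadmium (adjusted p of 0.0559 to 0.0703). That of pals-26 was lost without control(RNAi) library a, control(RNAi) with cadmium library a or c, ints-4(RNAi) library a or b or ints-4(RNAi) with cadmium library c (0.051 to 0.0705). The call of pals-33 was lost without control(RNAi) with cadmium library a (0.0614), and that of pals-37 without control(RNAi) with cadmium library a, ints-4(RNAi) library a or ints-4(RNAi) with cadmium library b (0.0565 to 0.062). Genes called only without 1 library were pals-5, pals-7, pals-13 and pals-28. Of the 18 response genes outside the family, 7 had a lower change in ints-4(RNAi) and 1 a higher change, where 3.70% and 4.53% of all genes did. Among the 7 were fbxa-158 (-3.55, SE 0.26, adjusted p = 3.71e-08), eol-1 (-3.89, SE 0.27, adjusted p = 2.72e-08) and cul-6 (-1.85, SE 0.16, adjusted p = 2.97e-07). The gene with the higher change was the RING gene rcs-1 (0.57).

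Compared under cadmium, ints-4(RNAi) still had more reads of 19 of the 37 genes than control(RNAi) and fewer of 2, where 16% of all genes were higher and 12.9% lower. This comparison was added after the data were seen. The genes that were lower were again pals-18 (-1.26) and pals-19 (-0.76). Reads of pals-28 were 94, 97 and 67 against 3, 0 and 4 (5.44, SE 0.73, adjusted p = 8.26e-06), and normalised reads of pals-24, which was not called without cadmium, were 491, 404 and 485 against 303, 292 and 374 (0.51, SE 0.13, adjusted p = 0.00441). The call of pals-8 was lost without any 1 of control(RNAi) with cadmium library a or b or ints-4(RNAi) with cadmium library a, b or c (0.0595 to 0.176), and that of pals-29 without the same libraries (0.0546 to 0.157). That of pals-1 was lost without control(RNAi) with cadmium library b or c or ints-4(RNAi) with cadmium library a (0.0585 to 0.0956), and that of pals-12 without library b of either group (0.0735 and 0.137).

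A few genes of the family were lower in numr-1/2(RNAi) without cadmium, where no fall of the numr-1/2 transcripts was called. Of the 37 genes 9 were lower in numr-1/2(RNAi) than in control(RNAi) and 1 was higher, where 14.5% of all genes were lower and 14.5% higher. In the deposited group values germline and oocyte markers summed to 2.07 times and sperm markers to 2.47 times control(RNAi). Intestine and epidermis markers summed to 0.807 and 0.931 times. The epidermis markers went both ways, with 1 of the 8 at least 2-fold higher and 3 at least 2-fold lower. Their log2 ratios ran from -2.6 to 2.4, and nhr-25 was called lower by limma. The part of all these markers was not tested. Normalised reads of pals-39 were 37.9, 43 and 33.2 against 95.5, 63.9 and 97.1 in control(RNAi) (-1.14, SE 0.19, adjusted p = 0.000158), with no overlap. The genes pals-6 and pals-1 were lower by -0.88 (SE 0.19, adjusted p = 0.00158) and -1.55 (SE 0.40, adjusted p = 0.00596). The repressor pals-22 had 99.8, 61.0 and 90.2 normalised reads against 140, 114 and 130 (-0.63, SE 0.21, adjusted p = 0.0261). The gene that was higher was pals-34, with 76.8, 92.0 and 78.8 against 38.4, 52.2 and 58.7 (0.74, SE 0.26, adjusted p = 0.0343). The remaining genes called lower were pals-2, pals-26, pals-32, pals-33 and pals-37, with differences of -2.15 to -0.60.

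Only the calls of pals-39, pals-6 and pals-1 among these 10 held without any 1 library. That of pals-22 was lost without control(RNAi) library a or c or numr-1/2(RNAi) library b (adjusted p of 0.064 to 0.159), and that of pals-34 without control(RNAi) library a or b or numr-1/2(RNAi) library a, b or c (0.0571 to 0.142). Those of pals-2 and pals-37 were lost without control(RNAi) library b, numr-1/2(RNAi) library a or numr-1/2(RNAi) library b, and that of pals-37 also without control(RNAi) library c, with adjusted p of up to 0.134. The call of pals-33 was lost without control(RNAi) library b or c or numr-1/2(RNAi) library a or b (0.0572 to 0.0967), that of pals-26 without numr-1/2(RNAi) library a or b (0.0536 and 0.054), and that of pals-32 without numr-1/2(RNAi) library a (0.0849). The genes pals-12, pals-27 and pals-38 were called without numr-1/2(RNAi) library a (0.0133 to 0.0361) and pals-3 without control(RNAi) library c (0.0151). In the response list 3 of the 18 genes were lower, eol-1 by 1.22 (adjusted p = 7.73e-05), B0507.8 and ddn-1, and none was higher, a share near the 14.5% of all genes that were lower.

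Cadmium raised 14 of the 37 genes in numr-1/2(RNAi) and lowered none, where 11.9% of all genes were higher and 12.1% lower. In the deposited group values the germline and oocyte markers summed to 0.493 times the level without cadmium, with 4 of the 8 at least 2-fold lower. The sperm markers summed to 0.769 times, and the intestine and epidermis markers to 1.01 and 1.02 times. The epidermis markers went both ways, with 2 of the 8 at least 2-fold higher, 1 at least 2-fold lower and log2 ratios from -1.27 to 1.77. By limma elt-2 and elt-7 were called lower, by 0.43 and 0.92, and nhr-25 higher (0.81). Their part was not tested. Scaled by the totals of the genes taken apart in every library, the split over all genes was 3195 higher and 1578 lower, from 2394 and 2426. With that scaling 15 members were higher and none lower, and the median of all genes moved from 0 to 0.13. The lowest and highest differences called were 1.18 (pals-17) and 5.13 (pals-2), and the median of the 37 was 0.75. Reads of pals-13 were 0, 0 and 3 without cadmium and 10, 5 and 30 with it, a ratio of 13.2 with a 95% interval of 4.23 to 66.3 (adjusted p = 0.012); the call was lost without numr-1/2(RNAi) library a or b or numr-1/2(RNAi) with cadmium library c (0.0596 to 0.0767). The reporter pals-5 had no read without cadmium and 2, 3 and 2 reads with it, at least 2.05-fold higher (adjusted p = 0.0342), a call lost without any 1 of the 6 libraries (0.0648 to 0.103). The change with cadmium differed from that in control(RNAi) for 1 gene, where 2.24% of all genes had a higher and 2.06% a lower change. That gene was pals-39, which had 141, 157 and 137 reads with cadmium in numr-1/2(RNAi) against 38, 43 and 32 without. Its fall in control(RNAi) was a call lost without some libraries. The 2 changes of pals-39 differed by 2.31 (SE 0.27, adjusted p = 2.85e-05). With cadmium in both groups, pals-39 was higher in numr-1/2(RNAi) than in control(RNAi) by 1.17 (SE 0.19, adjusted p = 0.000134), and 3 of the 37 genes were lower, where 14.8% of all genes were higher and 14.3% lower. Those 3 were pals-19, pals-18 and pals-28. The calls of the last 2 were lost without control(RNAi) with cadmium library c (adjusted p = 0.179 and 0.193) and without numr-1/2(RNAi) with cadmium library b or c; that of pals-28 was also lost without control(RNAi) with cadmium library a or numr-1/2(RNAi) with cadmium library a.

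By a rule of at least 2-fold on the deposited group values, with a larger value of at least 10, 25 of the 37 genes were higher and 2 lower with ints-4(RNAi), where 12.8% and 8.52% of all genes were. With cadmium in control(RNAi) 12 were higher and none lower, where 8.97% and 4.63% of all genes were, and in numr-1/2(RNAi) 13 and none, where 10.1% and 5.17% were. With numr-1/2(RNAi) none was higher and 3 were lower, where 8.57% and 7.92% were, and with cadmium in ints-4(RNAi) 3 and 3, where 4.17% and 3.30% were. These pooled values carry no spread between libraries.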

How the data were processed

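Poly(A) RNA of whole worms was sequenced in 18 libraries. According to the submitters' processing notes, HISAT2 2.1.0, HTSeq 0.6.1 and Cufflinks 2.1.1 were used; the genome build was not given in the sources used here. The deposited signal values are read counts that the authors scaled within each of 5 tables and averaged over the 3 libraries of a group. The tables also hold the authors' fold changes and p-values, which were not used. The 25 deposited splicing tables were not used, because their columns name no group and only a few events lie in pals genes.

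Each group value is a sum of 3 whole read numbers times the value of 1 read in each library. These steps were found from the low values, and the reads were solved from 3 tables for control(RNAi), 2 tables for each of the other groups without cadmium, and 1 table for each group with cadmium. Without cadmium all 47020 genes came out whole, for control(RNAi) within 4.91e-07 of a whole number. With 1 table the solution is unique up to about 12000 reads summed over the libraries of a group. This covered 96.5% to 97.0% of genes, a share that includes genes at 0. In the groups with cadmium 21102 to 23492 of the 47020 genes were above 0. Solved from 1 table alone, 46442 of 46442, 46376 of 46513 and 46522 of 46535 genes equalled the solution from several tables in the groups without cadmium fed the control vector, numr-1/2 and ints-4. Both the split and the limma test were tested on simulated data. The split recovered 100% of 3000 genes in each group. The limma test was tried for ints-4(RNAi) against control(RNAi) only. It recovered 67% of the 2-fold changes and 89% of the 4-fold changes. Of its 170 calls, 8.24% were genes without a change. A gene that was not called can therefore still differ, and some calls can be of unchanged genes. The simulation changed few genes and none with a low control(RNAi) mean. Its shares need not hold for pals genes with few control(RNAi) reads, or where many genes change. No count model was used. The deposited values themselves are not counts, and the whole reads taken apart from them were tested with limma only, as planned.

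Reads were scaled by a trimmed mean of log ratios and tested as log2(normalised reads + 0.5) with limma 3.58.1 (trend, robust) in R 4.3.3, over 20096 genes with at least 10 reads, in 1 fit of 6 groups. The 1895 genes not taken apart in every library, mostly genes of very many reads, entered neither the scaling nor the tests. In control(RNAi) library a the genes kept held 9103360 of 40521063 reads. Shares of all genes called by limma are shares of the genes tested. The planned splicing tests and promoter motifs were not run. The comparisons between RNAi groups that both had cadmium, and that of ints-4(RNAi) without cadmium with control(RNAi) with cadmium, were added after the data were seen. Other steps used Python 3.11.15, NumPy 2.4.6, pandas 2.3.3, SciPy 1.17.1 and SymPy 1.14.0, and positions are from WBcel235 in Ensembl release 115. Intervals and floors of 3 reads cover counting error only.

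Members and lists were chosen with earlier results of these data known. Named genes are pals-22, pals-25 and pals-5, the 10 members with the largest change in ints-4(RNAi), the 5 with the largest change with cadmium in control(RNAi), each with a larger value of at least 10, every member called against the direction of most members, and the 3 with the highest value in control(RNAi); other members are named with their role, row or call.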

Additional observations from a re-analysis of the deposited data

Results flagged for a closer look

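The change with cadmium differed between RNAi groups, by the interaction term, for 12 pals results. Between ints-4(RNAi) and control(RNAi) the 2 changes differed by -4.30 for pals-40, -4.26 for pals-2, -3.58 for pals-3, -2.23 for pals-33, -2.22 for pals-37, -1.94 for pals-17, -1.69 for pals-14, -1.55 for pals-6, -1.24 for pals-32 and -1.24 for pals-26 on the log2 scale, all lower in ints-4(RNAi), and by 1.51 for pals-19, higher in ints-4(RNAi). Between numr-1/2(RNAi) and control(RNAi) they differed by 2.31 for pals-39, higher in numr-1/2(RNAi). The ints-4 transcript itself was reduced and not removed. Without cadmium the summed intestine, epidermis and germline markers in ints-4(RNAi) were at 0.766, 0.448 and 0.583 times control(RNAi), with epidermis markers going both ways. By the interaction with ints-4(RNAi), 2 of 2 intestine and 3 of 5 germline and oocyte markers tested were called higher, and no epidermis or sperm marker was called. By that with numr-1/2(RNAi), 2 of 5 germline and oocyte markers were called higher and 1 of 3 epidermis markers lower, and no intestine or sperm marker was called. The part of these markers in the differences was not tested.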

How the results depend on the processing

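No paired analysis was possible because the deposited columns carry no replicate numbers. The count of pals genes called with ints-4(RNAi) was 25 to 28 when each library of the groups compared was left out in turn, that with cadmium in control(RNAi) 13 to 15, that in numr-1/2(RNAi) 12 to 15 and that of the interaction with ints-4(RNAi) 9 to 11. The libraries of the other groups share the estimate of the spread, and over all 18 libraries the count with cadmium in numr-1/2(RNAi) was 12 to 16, that with numr-1/2(RNAi) 4 to 12, that with cadmium in ints-4(RNAi) 2 to 6 and that of numr-1/2(RNAi) against control(RNAi), both with cadmium, 2 to 7, with the 7 without control(RNAi) library b. Smaller counts moved more, as follows for the groups compared. With numr-1/2(RNAi) 10 genes were called, 4 to 9 with a library left out, 6 with no minimum of reads and 5 at 2-fold or more. With cadmium in ints-4(RNAi) 5 were called, 2 to 5 with a library left out, 3 with no minimum, 8 with a prior of 5 reads and 2 at 2-fold or more. For numr-1/2(RNAi) against control(RNAi), both with cadmium, 4 were called, 2 to 4 with a library left out, 1 with no minimum and 2 at 2-fold or more, and the interaction with numr-1/2(RNAi) called 1, against 1 to 3 and, with a prior of 5 reads, 2. By the 2-fold rule on group values, cadmium in control(RNAi) called 12 genes, against 20 with no minimum and 6 at 4-fold, and in numr-1/2(RNAi) 13, against 20 and 8. With numr-1/2(RNAi) it called 3, against 6 with a minimum of 5, 12 with no minimum, 8 at 1.5-fold and 0 at 4-fold, and with cadmium in ints-4(RNAi) 6, against 16 at 1.5-fold and 2 at 4-fold. No called value changed direction under any setting run. The prior of 5 reads, scaling by the totals of the genes taken apart and the 2-fold limit on limma calls were chosen after seeing the data. The alternatives on protein identity and on splicing were not run. The cause of these differences was not tested.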
